A study of Homo sapiens with 9 samples.

Results

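Superoxide dismutases, catalase and the KEAP1-NRF2 axis were followed at the mRNA level in ovarian cancer cells after knockdown of the peroxide-reducing enzyme GPX3. The set holds 9 gene names, SOD1, SOD2, SOD3, CAT, NFE2L2, KEAP1, NQO1, HMOX1 and OSGIN1, taken from the gene table by name. No cut on a measured value was used, but the names were chosen with earlier results of these data known. These names matched 10 of the 58735 gene identifiers in the table, since SOD2 is listed under 2 identifiers. With edgeR, 9 of the 10 identifiers passed the count filter, and the second SOD2 entry (ENSG00000285441, 0 or 1 count per library) did not. Across the set, NQO1 was the member called between any of the groups. It was lower with hairpin 78 than with scramble, and lower with hairpin 78 than with hairpin 76. These calls are from the main fit, which does not block on the replicate number. A blocked fit also called NQO1 higher with hairpin 76 than with scramble, and NFE2L2 and OSGIN1 lower with hairpin 78 than with hairpin 76. That fit called 20.4% and 18.3% of all genes in these 2 comparisons.

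The cells were OVCAR3, an established line from a high-grade ovarian carcinoma, kept for 72 h in culture before RNA was taken. They carried either a scramble short hairpin RNA (labelled wild type) or 1 of 2 hairpins against GPX3 (labelled GPX3 knock-down), called sh76 and sh78 here after the submitters' numbers 76 and 78, with 3 libraries in each of the 3 groups. All groups share the cell line, the medium with serum and insulin, and the presence of a hairpin. The labels do not say whether the libraries of a group came from separate transductions or cultures, so p-values measure the spread between these libraries, which may be technical.

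Libraries held 14652965 to 21327562 counts, so that 1 CPM (the counts scaled by library depth with TMM factors) stood for 14.5 to 21.0 counts. Mean GPX3 levels were 133 ± 34.8, 55.9 ± 0.852 and 30.6 ± 4.01 CPM (SD, n = 3) for scramble, sh76 and sh78, with no overlap between groups. GDF15, the secreted protein named in the study's title, had 13.6 ± 0.544, 3.59 ± 1.56 and 1.75 ± 0.615 CPM in the same order. All 8 carcinoma epithelium markers (PAX8, MUC16, EPCAM, KRT8, KRT18, WT1, CD24 and WFDC2) had a mean FPKM (fragments scaled by gene length and library depth) of at least 1 in every group. Their summed level ran from 11388 to 12086 CPM with scramble, 10314 to 11009 CPM with sh76 and 9597 to 10125 CPM with sh78, where EPCAM, KRT8 and KRT18 were called lower and CD24 higher than with scramble. PAX8 was called lower with sh76 than with scramble (−0.28, edgeR adjusted p 0.0196) and higher with sh78 than with sh76 (0.37, edgeR adjusted p 0.00386). The part of this shift in the results was not tested, and in bulk RNA fewer cells of a kind and less RNA per cell cannot be told apart. Summed leukocyte markers (4 genes) lay at or under 1.72 CPM, endothelial markers (3 genes) at or under 10.8 CPM and fibroblast markers (5 genes, nearly all COL1A1) at or under 52.6 CPM in every library. DCN and LUM were at 0 in all scramble libraries, and reached at most 11 and 3 counts with sh76 and 3 and 0 with sh78. COL1A2 reached at most 25, 142 and 51 counts with scramble, sh76 and sh78, and was not called.

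Superoxide dismutases turn superoxide into hydrogen peroxide, and catalase and the glutathione peroxidases then break the peroxide down. NRF2, the protein made from NFE2L2, is a transcription factor that the adaptor KEAP1 holds in the cytoplasm and sends to the proteasome. When oxidants or electrophiles modify KEAP1, NRF2 escapes, pairs with a small MAF protein and binds antioxidant response elements near genes such as NQO1. Most of that control acts on the NRF2 protein, so NFE2L2 mRNA is not itself a readout of NRF2 activity.

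Compared per gene length, SOD1 was the most abundant member, at 65.5 to 78.9 FPKM over the 9 libraries. NQO1 (19.2 to 34.4 FPKM), KEAP1 (22.1 to 27.3 FPKM), CAT (22.8 to 25.7 FPKM) and NFE2L2 (19.7 to 24.6 FPKM) followed with ranges that overlapped each other. SOD2 came next at 2.77 to 3.40 FPKM, above HMOX1 (1.02 to 2.17 FPKM), OSGIN1 (0.633 to 1.53 FPKM) and SOD3 (0.344 to 0.953 FPKM), and the ranges of these last 3 also overlapped in sequence. FPKM depends on the gene length used, and the SOD2 model counts 16493 bases of exon against 2019 bases for SOD1. Per length, SOD1 therefore made up 94.2% to 96.0% of the summed SOD level in a library.

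**Figure D1:**
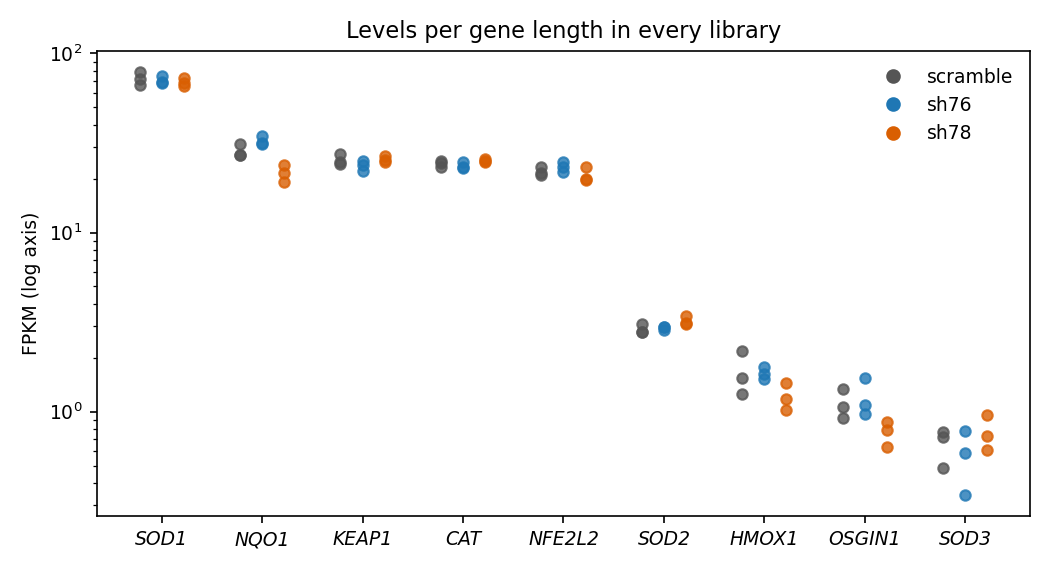
Level of each gene in FPKM (log axis) in every library, 1 point per library, coloured by group (scramble, sh76, sh78), genes ordered by their mean. SOD1 lies between 65.5 and 78.9 FPKM, and SOD3 stays under 1 FPKM in all 9 libraries.

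Each gene was then compared between groups with edgeR's quasi-likelihood test, with Benjamini-Hochberg adjustment over the 17023 genes tested and a call at an adjusted p under 0.05. With sh76, 0 of the 9 members were called against scramble, while 3.58% of all genes tested were called. By DESeq2 the number was also 0 of 9, by limma on log2(FPKM + 1) it was 0 of 8, and 1 member (NQO1) had an unadjusted p under 0.05. With sh78, 1 of 9 members was called lower (NQO1) and 0 were called higher, against 4.41% of all genes called and 2.56% called lower. Between the hairpins, sh78 against sh76, 1 of 9 was called lower (NQO1), against 3.7% of all genes called and 1.72% called lower. A count of 1 in 9 cannot be set apart from these background shares. The median log2 fold change of the members was −0.01, −0.05 and −0.05 in the 3 comparisons, against 0.01, 0.01 and 0.00 over all genes tested. The comparisons share the scramble or sh76 libraries, so they are not independent of each other.

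**Figure D2:**
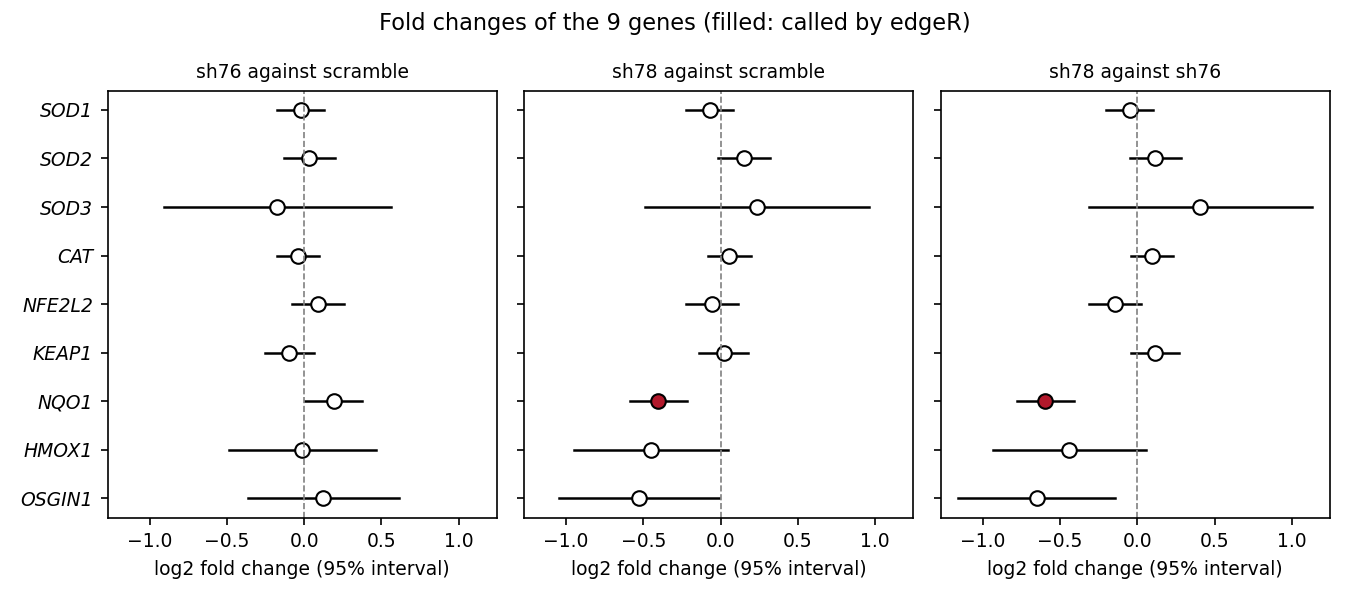
Log2 fold change of each gene in the 3 comparisons, with the 95% interval of the edgeR fit for that gene alone, not adjusted for the number of genes. Filled points mark edgeR calls, which are NQO1 with sh78 against scramble (−0.40) and against sh76 (−0.59), and the widest intervals belong to SOD3, HMOX1 and OSGIN1, the members with the fewest counts.

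NFE2L2 (ENSG00000116044, chromosome 2, 177227595 to 177392697, minus strand, GRCh38) encodes NRF2. It had 140.3, 129 and 124 CPM in scramble replicates 1 to 3, 149, 139.8 and 131 CPM with sh76, and 139.9, 120.4 and 119 CPM with sh78. The 3 groups overlapped, and replicate 1 was the highest of each group. The log2 fold change was 0.09 (95% interval −0.08 to 0.26, edgeR adjusted p 0.607) with sh76 and −0.05 (−0.22 to 0.11, edgeR adjusted p 0.801) with sh78. Between the hairpins it was −0.14 (SE 0.08, edgeR adjusted p 0.394), and a fit that blocks on the replicate number called it (−0.15, edgeR adjusted p 0.0173). In that blocked fit 18.3% of all genes were called for this comparison, and the same-numbered libraries differed by −0.09, −0.22 and −0.14. NFE2L2 shares 1054 exon bases with the same-strand gene AC019080.1 (34 to 63 counts per library) and 54 with AGPS on the opposite strand (2121 to 2849 counts), and the libraries keep no strand.

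KEAP1 (ENSG00000079999, chromosome 19, 10486120 to 10503741, minus strand) encodes the NRF2 adaptor. It had 104, 91.0 and 93.2 CPM with scramble, 95.4, 84.0 and 90.0 CPM with sh76, and 102, 96.3 and 93.5 CPM with sh78 in replicates 1 to 3. All 3 groups overlapped, and replicate 1 was again the highest of each group. The log2 fold change was −0.10 (95% interval −0.25 to 0.06, edgeR adjusted p 0.552) with sh76 and 0.02 (−0.14 to 0.18, edgeR adjusted p 0.938) with sh78. Between the hairpins it was 0.11 (−0.04 to 0.27, edgeR adjusted p 0.501).

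The ratio of NFE2L2 to KEAP1 on the FPKM scale was examined after the single values were seen. It was 0.852, 0.891 and 0.840 in scramble replicates 1 to 3, 0.980, 1.05 and 0.915 with sh76, and 0.867, 0.786 and 0.799 with sh78. All 3 sh76 values lay above all values of the other groups. The mean log2 difference was 0.19 for sh76 against scramble (exact two-sided permutation p 0.1, adjusted 0.15), −0.08 for sh78 against scramble (exact p 0.3, adjusted 0.3) and −0.26 for sh78 against sh76 (exact p 0.1, adjusted 0.15). With 3 libraries per group the smallest p this test allows is 0.1.

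Antioxidant response elements were looked for in the promoter windows, because they are the sites through which NRF2 acts on its targets. The core searched was TGACNNNGC on both strands of windows of 300 bases (250 before to 50 after an annotated start) from RefSeq, GRCh38.p14. Windows were found for 7 of the 9 members (12 windows), SOD1 and HMOX1 having none in the table. The core occurred in 1 of the 12 (8.33%), a window of KEAP1, against 13.3% of all 35116 windows. It occurred in 8 of 25 windows (32.0%) of a list of other NRF2 targets described further on. The NQO1 and OSGIN1 windows held no match, which says only that these letters are not in those windows. Sites further from the start were not searched, so an element there would have been missed. The 2 KEAP1 matches are shown with 1 match each from TXNRD1, ME1 and GCLM, NRF2 targets on that list chosen for comparison, on the strand that holds the core, 5′ to 3′, with the core in capitals.

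KEAP1, chr19:10502784-10502812, plus strand: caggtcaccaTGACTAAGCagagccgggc
KEAP1, chr19:10502807-10502835, minus strand: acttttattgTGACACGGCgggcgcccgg
TXNRD1, chr12:104286920-104286948, minus strand: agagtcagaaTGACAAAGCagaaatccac
ME1, chr6:83431170-83431198, minus strand: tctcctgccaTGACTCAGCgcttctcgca
GCLM, chr1:93909446-93909474, plus strand: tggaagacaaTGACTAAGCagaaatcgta

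The first KEAP1 core and the GCLM core are the same 9 letters. A match describes the sequence and does not show that NRF2 binds there in these cells.

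NQO1 (ENSG00000181019, chromosome 16, 69706996 to 69726951, minus strand) encodes a quinone reductase that is a standard readout of NRF2. It had 88.7, 89.3 and 101 CPM in scramble replicates 1 to 3, 102, 104 and 113 CPM with sh76, and 63.0, 70.0 and 78.4 CPM with sh78. The 3 groups did not overlap, with sh76 the highest and sh78 the lowest, although both hairpins lowered GPX3. Group means were 93.1 ± 7.12, 106 ± 5.73 and 70.5 ± 7.73 CPM (SD, n = 3).

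With sh78 the log2 fold change of NQO1 against scramble was −0.40 (SE 0.09, 95% interval −0.59 to −0.22, edgeR adjusted p 0.0155), which is 24.4% below the scramble level. Against sh76 it was −0.59 (SE 0.09, interval −0.78 to −0.41, edgeR adjusted p 0.00169). With sh76 against scramble it was 0.19 (SE 0.09, interval 0.01 to 0.37, edgeR adjusted p 0.261), which the replicate block called (edgeR adjusted p 0.00358, in a fit that called 20.4% of all genes). Within same-numbered libraries the sh76 differences from scramble were 0.20, 0.22 and 0.15, and those of sh78 were −0.49, −0.35 and −0.37. The call against scramble was lost without scramble replicate 3 (−0.34, edgeR adjusted p 0.0723), without sh78 replicate 1 (−0.33, edgeR adjusted p 0.0588) and without sh78 replicate 2 (−0.40, edgeR adjusted p 0.0576). The call between hairpins held in all 16 alternatives, with log2 fold changes from −0.67 to −0.52. An antisense gene, AC092115.2, shares 575 exon bases with NQO1 and had 0 counts in all libraries.

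**Figure D3:**
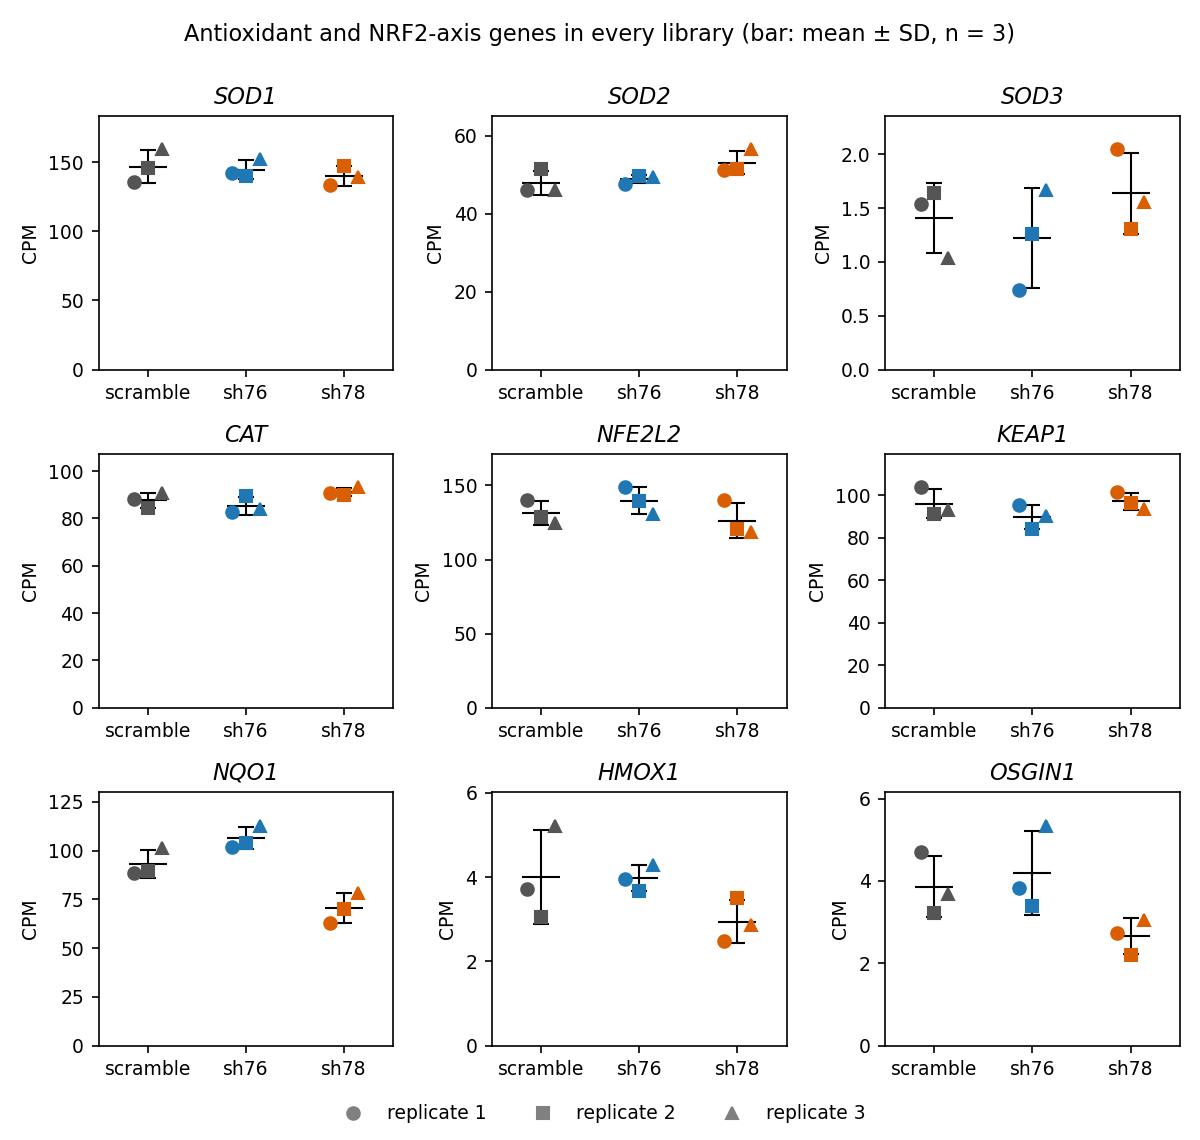
CPM of the 9 genes in every library, with the mean and SD of each group (n = 3) as bars, the marker shape giving the replicate number and every axis starting at 0. NQO1 is the gene whose 3 groups are apart in CPM (88.7 to 101, 102 to 113 and 63.0 to 78.4), narrowly so for scramble and sh76. The groups of SOD1, SOD3, NFE2L2 and KEAP1 overlap in every comparison.

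Groups that do not overlap in CPM were common in these data, at 22.5% of all genes for sh76 against scramble, 21.5% for sh78 against scramble and 21.8% for sh78 against sh76. Among the 9 tested members they numbered 1 (NQO1), 2 (NQO1 and OSGIN1) and 5 (SOD2, CAT, NQO1, HMOX1 and OSGIN1). In the last comparison SOD2 and CAT were above with sh78, and the other 3 were below.

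HMOX1 (ENSG00000100292, chromosome 22, 35380361 to 35394214, plus strand) encodes heme oxygenase 1, which opens the heme ring and frees its iron. It was near the bottom of the range, with 44 to 91 counts per library. Its levels were 3.73, 3.05 and 5.22 CPM with scramble, 3.95, 3.68 and 4.29 CPM with sh76, and 2.48, 3.51 and 2.86 CPM with sh78 in replicates 1 to 3. All sh78 values were below all sh76 values, and both hairpins overlapped scramble, whose replicate 3 was the highest library of all. With sh76 the log2 fold change came to −0.01 with an SE of 0.22 (edgeR adjusted p 0.990), with sh78 to −0.45 (SE 0.23, edgeR adjusted p 0.350) and between hairpins to −0.44 (SE 0.23, edgeR adjusted p 0.379). The 95% interval for sh78 against scramble, −0.95 to 0.05, is wide for so few counts.

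OSGIN1 (ENSG00000140961, chromosome 16, 83948282 to 83966332, plus strand) encodes a growth inhibitor induced by oxidative stress. It had 4.69, 3.23 and 3.67 CPM with scramble, 3.82, 3.39 and 5.34 CPM with sh76, and 2.75, 2.20 and 3.05 CPM with sh78, from 32 to 112 counts per library. All 3 sh78 libraries were below all 6 others, and sh76 overlapped scramble. With sh78 the log2 fold change came to −0.53 (SE 0.24, unadjusted p 0.0459, edgeR adjusted p 0.275), and with sh76 to 0.12 (SE 0.23, edgeR adjusted p 0.845). Between hairpins it was −0.65 (SE 0.24, edgeR adjusted p 0.169), and the replicate block called it (−0.66, edgeR adjusted p 0.0167). With the block, OSGIN1 against scramble had an edgeR adjusted p of 0.0607 for sh78, where 19.9% of all genes were called. The neighbour AC009119.2 shares 481 exon bases with OSGIN1 on the same strand and had at most 6 counts.

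SOD1 (ENSG00000142168, chromosome 21, 31659622 to 31668931, plus strand) encodes the copper and zinc dismutase of the cytosol. It had 136, 146 and 159 CPM with scramble, 142, 139.9 and 152 CPM with sh76, and 133, 147 and 139 CPM with sh78. The groups overlapped throughout. Its log2 fold change was −0.02 (95% interval −0.17 to 0.13, edgeR adjusted p 0.921) with sh76 and −0.07 (−0.22 to 0.08, edgeR adjusted p 0.687) with sh78. The processed pseudogenes SOD1P1, SOD1P2 and SOD1P3 had 0 counts in all libraries.

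SOD2 (ENSG00000112096, chromosome 6, 159669057 to 159745186, minus strand) encodes the manganese dismutase of the mitochondrial matrix. It had 46.1, 51.4 and 46.0 CPM with scramble, 47.7, 49.8 and 49.3 CPM with sh76, and 51.2, 51.6 and 56.5 CPM with sh78. All sh78 values lay above all sh76 values, while scramble replicate 2 reached into the sh78 range. The log2 fold change was 0.03 (interval −0.13 to 0.20, edgeR adjusted p 0.883) with sh76 and 0.15 (−0.02 to 0.32, edgeR adjusted p 0.346) with sh78. SOD2 overlaps WTAP on the opposite strand by 298 exon bases (652 to 987 counts per library) and its own second identifier by 845 bases.

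SOD3 (ENSG00000109610, chromosome 4, 24789912 to 24800842, plus strand), the secreted dismutase, had 12 to 38 counts per library. Its levels were 1.54, 1.64 and 1.03 CPM with scramble, 0.740, 1.26 and 1.67 CPM with sh76, and 2.05, 1.31 and 1.56 CPM with sh78. The groups overlapped, and the log2 fold changes were −0.17 (95% interval −0.91 to 0.56, edgeR adjusted p 0.854) and 0.23 (−0.49 to 0.96, edgeR adjusted p 0.801). With so few counts the intervals hold large changes in both directions, and no difference was detectable at this depth.

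CAT (ENSG00000121691, chromosome 11, 34438925 to 34472062, plus strand) encodes catalase, the peroxisomal enzyme that splits hydrogen peroxide. It varied least of the members, with a coefficient of variation of 4.11% over the 9 libraries. Its levels were 88.1, 84.4 and 90.5 CPM with scramble, 82.6, 89.6 and 83.9 CPM with sh76, and 90.7, 89.8 and 93.1 CPM with sh78. Values with sh78 all lay above those with sh76, and scramble overlapped both. The log2 fold change was −0.04 (95% interval −0.17 to 0.10, edgeR adjusted p 0.823) with sh76, 0.06 (−0.08 to 0.19, edgeR adjusted p 0.726) with sh78 and 0.09 (−0.04 to 0.23, edgeR adjusted p 0.525) between hairpins.

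The genes most like NQO1 across the 9 libraries were sought among 11042 other protein-coding genes with a mean FPKM of at least 1, by Pearson r on log2 CPM. They were CD109 (r 0.99), a membrane glycoprotein, GIPC1 (r 0.98), a PDZ-domain adaptor, and ALK (r 0.98), a receptor tyrosine kinase. CD109 had mean levels of 64.2, 77.6 and 46.6 CPM with scramble, sh76 and sh78. ALK had 21.4, 26.4 and 16.6 CPM, and GIPC1 had 159, 169.5 and 131 CPM. The libraries share their batch numbers and the same 3 groups, and with so many candidates a high r is a description of these 9 libraries.

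Other NRF2 targets were read from a list of 28 genes, of which 26 passed the count filter and ABCC2 and GPX2 did not. The list was chosen with earlier results of these data known. With sh76, 2 were called higher and 2 lower (15.4% of 26), where 1.43% of all genes were called higher and 2.16% lower. The list's median log2 fold change was −0.11, against 0.01 over all genes. With sh78, 3 were called lower and 0 higher (11.5%), where 2.56% of all genes were called lower and 1.85% higher, and the median was −0.11. DESeq2 called 4 and 5, and limma on log2(FPKM + 1) called 1 and 2 of 23. The replicate block called 15 (5 higher, 10 lower) and 11 (2 higher, 9 lower), in fits that called 20.4% and 19.9% of all genes.

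SLC7A11, the cystine importer that feeds glutathione synthesis, fell with both hairpins, from a scramble level of 46.3 ± 10.5 CPM to 29.2 ± 1.61 (sh76) and 26.0 ± 3.10 CPM (sh78). On the log2 scale this was −0.67 (edgeR adjusted p 0.0177) and −0.83 (edgeR adjusted p 0.00437). Leaving out sh76 replicate 2 or 3 ended the first of these calls (−0.66 to −0.63), as did both FPKM scales. TXNRD1, which reduces thioredoxin, fell with sh78 from 443 ± 42.4 to 304 ± 21.9 CPM (−0.54, SE 0.08, edgeR adjusted p 0.00162), a call kept in every alternative. With sh76 it had 388 ± 29.8 CPM (−0.19, edgeR adjusted p 0.229), which the block called (edgeR adjusted p 0.000571).

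FTL, the ferritin light chain that stores iron, fell with sh76 from 226 ± 13.2 to 169 ± 18.4 CPM (−0.42, edgeR adjusted p 0.0104), a call kept in every alternative, and had 192 ± 12.8 CPM with sh78 (−0.24, edgeR adjusted p 0.128, called with the block at 8.19e-05). Ferritin genes have many processed copies, so the FTL counts are uncertain to that extent. AKR1B10, an aldo-keto reductase, fell with sh78 from 2.56 ± 0.615 to 1.03 ± 0.494 CPM (−1.34, edgeR adjusted p 0.0482). That call was lost on leaving out any of 6 of the 9 libraries (scramble replicate 2 or 3, sh76 replicate 2 or 3, sh78 replicate 1 or 3; −1.46 to −0.98), in the fit of the 2 groups alone and on both FPKM scales.

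ABCC3, an efflux pump for conjugates, rose with sh76 from 6.29 ± 1.17 to 12.8 ± 2.10 CPM (1.02, edgeR adjusted p 0.0208). The sh76 call was lost without scramble replicate 1 or 2 or sh76 replicate 2 or 3 (0.92 to 1.00), and on both FPKM scales. With sh78 ABCC3 had 10.4 ± 3.05 CPM (0.71, edgeR adjusted p 0.102, called with the block at 0.00013). AKR1C3 rose with sh76 from 2.36 ± 0.219 to 4.31 ± 0.544 CPM (0.86, edgeR adjusted p 0.0264), lost without any 1 scramble library or sh76 replicate 1 or 3 (0.78 to 0.91). With sh78 AKR1C3 had 3.10 ± 0.191 CPM, all above scramble but not called (0.39, edgeR adjusted p 0.359, with the block 0.216). AKR1C1, AKR1C2 and AKR1C3 are related genes of similar sequence, between which reads can be split.

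Between the hairpins, 3 of these 26 targets were called, where 1.97% of all genes were called higher with sh78 and 1.72% lower. TRIM16, a ubiquitin ligase, was lower with sh78 than with sh76, at 44.1 ± 4.82 against 65.3 ± 4.86 CPM (−0.57, edgeR adjusted p 0.00364), with scramble between them at 55.8 ± 3.13 CPM as for NQO1. The block called TRIM16 against scramble with sh76 (0.23, edgeR adjusted p 0.00308) and with sh78 (−0.34, edgeR adjusted p 3.22e-05). TRIM16 has near-identical copies, so its counts are uncertain to that extent. TXNRD1 was also lower (−0.35, edgeR adjusted p 0.0281), a call lost without sh76 replicate 2 or 3 or sh78 replicate 1 or 2 (−0.38 to −0.28) and on both FPKM scales. SLC48A1, a heme transporter, was higher with sh78 than with sh76, at 139.3 ± 16.3 against 97.2 ± 9.84 CPM (0.52, edgeR adjusted p 0.0260). Scramble lay between them at 122 ± 16.9 CPM. The block called SLC48A1 against scramble with sh76 (−0.32, edgeR adjusted p 2.47e-06) and with sh78 (0.20, edgeR adjusted p 0.00196). The SLC48A1 call between hairpins was lost without scramble replicate 2, sh76 replicate 2 or 3, or sh78 replicate 1 or 2 (0.44 to 0.57), and on both FPKM scales. The block called 10 of 26 here, 3 higher and 7 lower, where it called 18.3% of all genes. The list's median was −0.08 against 0.00 over all genes.

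**Figure D4:**
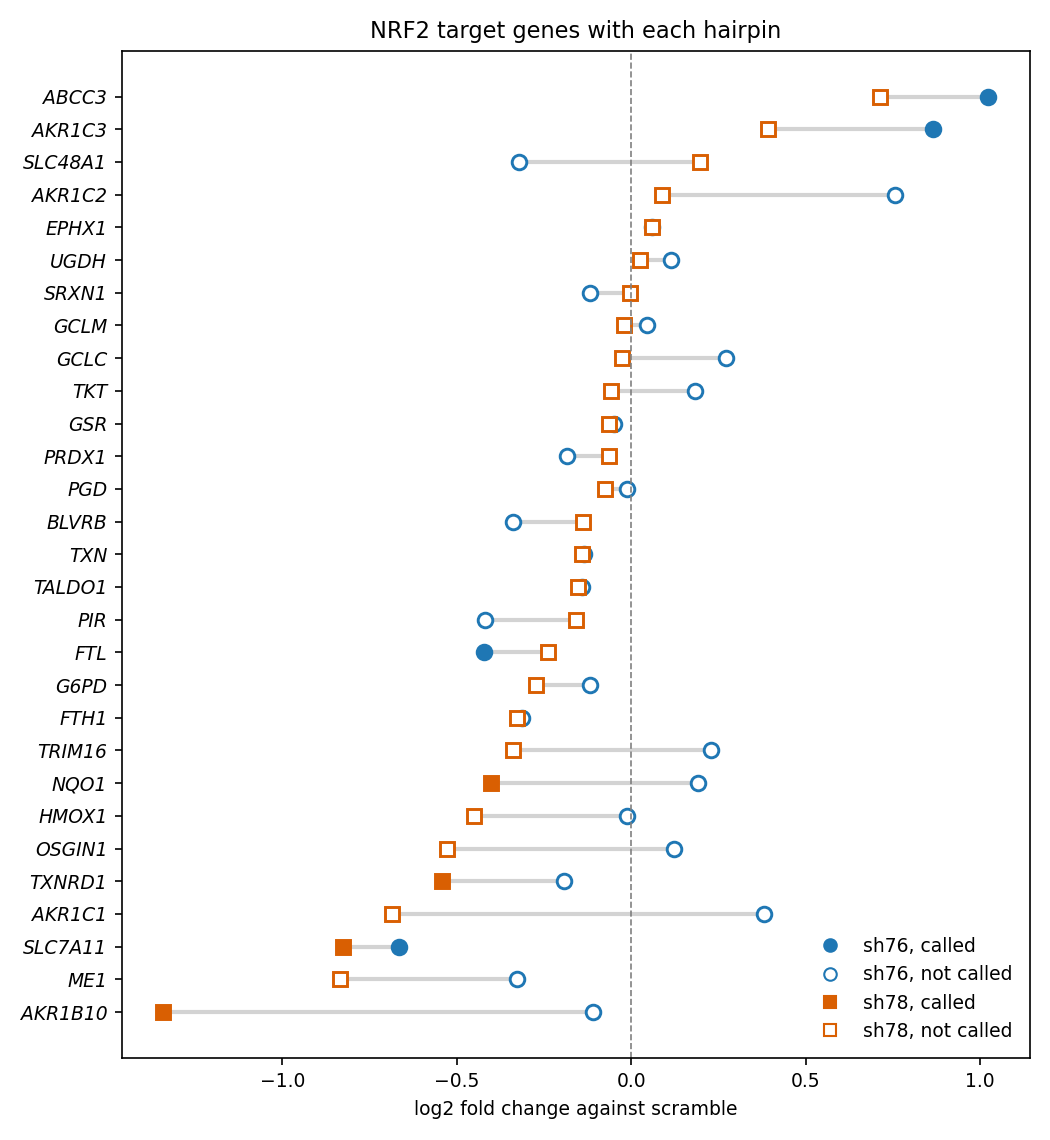
Log2 fold change against scramble of NQO1, HMOX1, OSGIN1 and the 26 other NRF2 targets tested, with sh76 as circles and sh78 as squares, filled where edgeR called the gene, ordered by the sh78 value. SLC7A11 is filled for both hairpins (−0.67 and −0.83), while NQO1 is filled for sh78 alone (0.19 with sh76 and −0.40 with sh78), and the 2 hairpins share their scramble libraries.

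NRF2 partners, relatives and turnover factors, 17 genes that include the small MAFs, BACH1 and the CUL3 ligase, all passed the count filter. SQSTM1, the autophagy receptor that sequesters KEAP1, was the 1 gene called with sh76 (5.88%), near the 3.58% of all genes. It fell from 189 ± 11.6 to 135 ± 9.76 CPM (−0.49, SE 0.07, edgeR adjusted p 0.00177) and kept that call in every alternative. With sh78 SQSTM1 had 165 ± 5.62 CPM (−0.20, edgeR adjusted p 0.133, called with the block at 0.00121), and it was higher with sh78 than with sh76 (0.29, edgeR adjusted p 0.0335). The call between hairpins was lost without sh76 replicate 1 or 2 or any 1 sh78 library (0.25 to 0.32) and on both FPKM scales. With sh78 against scramble 0 of 17 were called by edgeR, DESeq2 or limma (16 tested), and 3 passed at an unadjusted p under 0.05. The blocked fit called 5 of the 17, where it called 19.9% of all genes. The list's medians were 0.03, 0.04 and 0.01 in the 3 comparisons.

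Genes around the dismutases, which supply copper or make superoxide, numbered 14, of which 11 were tested. NOX3, CYBB and DUOX2 were below the filter. Against scramble 0 of 11 were called by edgeR with either hairpin, where 3.58% and 4.41% of all genes were called, while 3 and 3 had an unadjusted p under 0.05. DESeq2 called 0 and 1, limma 0 and 0 of 7, and the block 4 and 4, all lower, where it called 20.4% and 19.9% of all genes. CCS, the copper chaperone that loads SOD1, had a log2 fold change of −0.25 with sh76 (edgeR adjusted p 0.106, with the block 0.00257) and −0.0041 with sh78, and it was chosen after its values were seen. NOX4, a peroxide-producing oxidase, was higher with sh78 than with sh76, at 4.12 ± 0.713 against 2.32 ± 0.223 CPM (0.83, edgeR adjusted p 0.0494). Its scramble level, 3.94 ± 0.587 CPM, was near that with sh78 (0.06, edgeR adjusted p 0.931). All sh76 values lay below scramble (−0.77, edgeR adjusted p 0.0658, called with the block at 0.0050). CYBA, a subunit that NADPH oxidases share, was lower with sh78 than with sh76, at 188 ± 7.45 against 221 ± 5.31 CPM (−0.23, edgeR adjusted p 0.0436). Its scramble level was 209 ± 9.39 CPM, and the block called sh78 lower than that (−0.15, edgeR adjusted p 0.00813). The NOX4 call was lost on leaving out any of 7 of the 9 libraries (0.71 to 0.89; all but scramble replicate 1 and sh78 replicate 1), and that of CYBA in 8 (−0.26 to −0.20; all but scramble replicate 1). Both calls were lost in the fit of the 2 groups alone, and that of CYBA on both FPKM scales. Between the hairpins these were the 2 of 11 called (18.2%), where 3.7% of all genes were called, and 4 had an unadjusted p under 0.05. DESeq2 called 2, limma 0 of 7, and the block 4 (2 higher, 2 lower), where it called 18.3% of all genes.

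Among 14 genes for the import of catalase into peroxisomes and for peroxisomal oxidases, 12 were tested (not HAO1 and DAO). PRDX5, a peroxiredoxin found in peroxisomes and mitochondria, was the 1 called with sh76 (8.33%, where 3.58% of all genes were called and 2.16% were called lower), falling from 258 ± 4.85 to 217 ± 8.19 CPM (−0.25, edgeR adjusted p 0.0249). It was lost without scramble replicate 2 or 3 or sh76 replicate 1 or 2 (−0.27 to −0.22). In the other comparisons 0 were called by edgeR, DESeq2 or limma, with 2 and 2 passing at an unadjusted p under 0.05, while the blocked fit called 4, 2 and 2, where it called 20.4%, 19.9% and 18.3% of all genes. Of 7 genes for heme turnover or related to NQO1 and OSGIN1, 0 were called in any comparison by edgeR, DESeq2 or limma (6 tested). An unadjusted p under 0.05 was found for 1, 2 and 0 of them. The block called 1, 1 and 0, and the 1 was POR, the reductase that serves heme oxygenase, named after its values were seen, at −0.15 with sh76 and −0.21 with sh78.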

How the data were processed

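Per the labels' protocols, poly-T-selected RNA was made into non-directional libraries. The submitters' processing notes name HISAT2 2.0.5, featureCounts 1.5.0-p3 and hg38. The annotation and counting settings are not given in the sources used here. The authors deposited raw counts per gene and FPKM values. All 58735 identifiers matched GENCODE release 29 (GRCh38) in name, start and end.

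Counts were tested with edgeR 4.0.16 (R 4.3.3): filterByExpr (minimum count 10, total 15), TMM factors, robust quasi-likelihood fit, 1 coefficient per group over 9 libraries, a common biological coefficient of variation of 10.4%. Alternatives used DESeq2 1.42.0, RLE factors, no filter, 2 groups only, limma 3.58.1 on log2(FPKM + 1) and log2(FPKM + 0.1) for genes of mean FPKM at least 1, a replicate block, and each library left out. The edgeR step was tested on simulated data with 200 changed genes. No replicate duplicated another (chi-square per degree of freedom 4.90 to 11.1).

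Same-numbered libraries deviated together from their group means (r 0.14 to 0.39 in 9 pairs, −0.31 to 0.06 in 18 others), so the labels' numbers were read as shared batches. Blocked values are given wherever they change the call of a member. For the listed genes they are given in part, so a missing blocked value does not mean that the block left the call unchanged.

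The members, the gene lists and the rule for naming genes were chosen with earlier results of these data known. The rule named all members, listed genes called in any comparison (at most 4 each way per list and comparison), and the 3 genes most like each called member.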

Additional observations from a re-analysis of the deposited data

Results flagged for a closer look

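NQO1 was singled out because its level differed between the hairpins when sh78 and sh76 were compared directly. The difference was −0.59 on the log2 scale (edgeR adjusted p 0.00169), and it is the same difference by which NQO1 was singled out. All sh78 values lay below all sh76 values, so every same-numbered pair had to go the same way. Groups did not overlap in CPM for 21.8% of all genes in this comparison. Groups of 3 libraries were too small to look for single outlying libraries.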

How the results depend on the processing

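The member calls were kept under DESeq2, RLE factors, no filter, 2 groups only and both FPKM scales, where SOD3 could not be tested. With the replicate block 1 member was called for sh76 against scramble, 1 for sh78 and 3 between hairpins. The block called 20.4%, 19.9% and 18.3% of all genes in these comparisons, and such small counts cannot be set apart from those shares. Leaving out 1 library gave 0 to 1 member for sh78 against scramble. Genes called over all tested were 610, 750 and 629. They became 3467, 3388 and 3117 with the replicate block, which changed no other member call, and 1149, 1212 and 1125 with no filter. On log2(FPKM + 1) they were 399 for sh76 and 374 between hairpins, and on log2(FPKM + 0.1) 375 and 371. On those scales the split between hairpins was 180 higher and 194 lower, and 179 and 192, in place of 336 and 293. The FPKM fits cover only genes of mean FPKM at least 1, and the main fit covers 17023 genes. These counts, like those with no filter, are therefore over different sets of genes. Leaving out 1 library gave 237 to 655, 418 to 810 and 273 to 780, the lowest without sh76 replicate 2, scramble replicate 2 and sh76 replicate 2. The count also fell by more than a factor of 1.5 without scramble replicate 3 or sh76 replicate 3 (333 and 339) and scramble replicate 2 (313) for sh76, without scramble replicate 3 or sh78 replicate 2 or 3 (458, 469 and 453) for sh78, and without sh76 replicate 3 or sh78 replicate 1, 2 or 3 (368, 344, 375 and 351) between hairpins. Some fold changes near 0 changed sign, none of them called. HMOX1 with sh76 was 0.0030 on log2(FPKM + 1), 0.015 on log2(FPKM + 0.1) and −0.18 to 0.23 with 1 library left out. With sh76, leaving out 1 library gave −0.080 to 0.037 for SOD1, −0.46 to 0.062 for SOD3 and −0.10 to 0.28 for OSGIN1, and with sh78 −0.023 to 0.074 for KEAP1. Depth limits SOD3, HMOX1 and OSGIN1, which had 12 to 112 counts per library.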
